A study of Homo sapiens with 2 samples.

Results

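The genes described here are 10 that encode secreted glycoproteins of the extracellular matrix, CHI3L1 with its paralog CHI3L2, fibronectin (FN1), fibulin 1 (FBLN1), tenascin C (TNC), the thrombospondins THBS1 and THBS2, SPARC, osteopontin (SPP1) and periostin (POSTN). They were taken by gene symbol from a table of 58735 genes, and all 10 symbols were found once each. They were picked with differences between these same libraries already known, so their values below are a description and test nothing. RNA sequencing was done on U87MG, an established human glioblastoma line, grown for a week as spheres in stem cell medium. Stably infected, puromycin-selected cells carried a lentiviral shRNA against TRIP13, a checkpoint ATPase of dividing cells (the library labelled shTRIP13), or the pGIPZ control vector (the shcon library). Each group held 1 library, so no difference has a replicate check, no p-value is given, and differences between separately selected cell populations cannot be told apart from an effect of the shRNA.

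Matrix glycoproteins link cells to collagen and to each other. Fibronectin builds fibrils that integrins bind. Tenascin C, thrombospondins, SPARC, osteopontin and periostin are matricellular proteins. They sit in the matrix mainly to bind receptors, growth factors and proteases rather than to bear load. CHI3L1 is a chitinase-like lectin that binds chitin without cutting it, and in glioblastoma it is a widely used marker of the mesenchymal state. TNC, FN1, SPP1 and POSTN are also known products of glioma tissue, where tumour cells, vessel-associated cells and macrophages can each make some of them.

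TRIP13 itself had 23.1 FPKM in the library labelled shTRIP13, against 11.9 FPKM in the shcon library, which goes against the label. Every direction below is therefore one between libraries as labelled. FPKM relates the fragments of a gene to its exon length and to a library total, so it can be compared between genes. The values were whole multiples of 1 read, which gave 19903836 reads for the library labelled shTRIP13 and 18871063 for the shcon library. The same total had been used for both columns, so a ratio of FPKM is a ratio of reads and still carries the depth ratio of 1.05. Of the markers of glioma stem cells 3 of 10 had a mean FPKM of 1 or more. Of these 1, OLIG2, was called lower by the size rule given below, at 22 reads against 177. OLIG2 had 0.339 against 2.72 FPKM and reached that mean only through the shcon library. NES had 238 reads in the library labelled shTRIP13 against 563 in the shcon library. That is 2.37-fold lower, but short of the size rule, which adds 1 FPKM. FUT4 had 145 reads against 112, while SOX2 had 1 against 2, PROM1 1 against 5 and MSI1 0 in both. The astrocyte marker GFAP had 28 reads against 92.

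Start regions differ among these genes. The motif search used sequence alone, but the genes, and the 6 regions shown, were chosen with their values known. RefSeq places a start for all 10 (GRCh38.p14), and the 250 bases before it were searched for fixed motif letters. The TATA box letters TATAA, on the gene's own strand with their first base 40 to 20 bases before the start, were found for CHI3L1, FN1, TNC, THBS2 and POSTN, 5 of the 10 genes. Those letters stood there in 3.91% of the 35116 promoters that RefSeq gives. The 6 regions shown are those of the chitinase-like pair, of FN1 and THBS2 as abundant genes lower by 2-fold or more in the library labelled shTRIP13, of SPP1, an abundant gene less than 2-fold lower there, and of POSTN, which was higher. Each is printed on the gene's strand, with capitals for the motifs searched.
CHI3L1: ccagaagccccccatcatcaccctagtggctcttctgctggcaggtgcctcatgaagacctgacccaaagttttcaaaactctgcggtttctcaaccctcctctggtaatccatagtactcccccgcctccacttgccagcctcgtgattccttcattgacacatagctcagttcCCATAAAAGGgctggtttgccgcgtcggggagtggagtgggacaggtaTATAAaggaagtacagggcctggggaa
CHI3L2: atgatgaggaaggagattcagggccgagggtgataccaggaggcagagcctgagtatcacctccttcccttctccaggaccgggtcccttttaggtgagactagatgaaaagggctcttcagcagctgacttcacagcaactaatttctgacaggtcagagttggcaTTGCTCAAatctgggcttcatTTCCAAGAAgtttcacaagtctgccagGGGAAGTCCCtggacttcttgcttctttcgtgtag
FN1: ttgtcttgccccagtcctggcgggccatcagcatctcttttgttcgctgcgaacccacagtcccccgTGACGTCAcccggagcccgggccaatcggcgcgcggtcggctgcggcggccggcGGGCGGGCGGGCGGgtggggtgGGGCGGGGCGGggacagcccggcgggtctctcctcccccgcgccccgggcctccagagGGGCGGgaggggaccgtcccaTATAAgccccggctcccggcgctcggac
THBS2: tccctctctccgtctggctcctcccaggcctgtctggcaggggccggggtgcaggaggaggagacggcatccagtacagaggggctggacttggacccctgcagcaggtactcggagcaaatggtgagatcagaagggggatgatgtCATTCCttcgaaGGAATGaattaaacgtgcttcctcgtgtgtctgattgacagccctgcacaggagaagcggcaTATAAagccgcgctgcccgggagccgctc
SPP1: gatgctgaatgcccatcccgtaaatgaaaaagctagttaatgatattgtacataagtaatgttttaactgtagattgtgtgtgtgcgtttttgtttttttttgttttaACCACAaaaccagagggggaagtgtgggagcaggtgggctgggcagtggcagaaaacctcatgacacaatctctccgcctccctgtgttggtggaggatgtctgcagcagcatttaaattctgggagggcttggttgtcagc
POSTN: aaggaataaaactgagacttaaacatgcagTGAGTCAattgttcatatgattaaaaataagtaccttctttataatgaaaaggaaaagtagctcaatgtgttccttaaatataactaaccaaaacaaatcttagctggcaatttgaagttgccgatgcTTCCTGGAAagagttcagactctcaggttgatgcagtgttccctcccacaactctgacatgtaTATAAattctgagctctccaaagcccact
The regions lie at chr1:203186705-203186954 (minus strand) for CHI3L1, chr1:111227409-111227658 (plus) for CHI3L2, chr2:215436069-215436318 (minus) for FN1, chr6:169253847-169254096 (minus) for THBS2, chr4:87975464-87975713 (plus) for SPP1 and chr13:37598769-37599018 (minus) for POSTN. RefSeq gives CHI3L2 a further start downstream, and the region of the upstream start is shown.

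Capitals near the end of the CHI3L1, FN1, THBS2 and POSTN regions are the TATA box letters, at 27, 28, 29 and 29 bases before the start, and they are missing from CHI3L2 and SPP1 in that window. The other motifs were searched on both strands. In CHI3L1 the remaining capitals are a CArG box, the element read by serum response factor, held by 1.16% of all promoters and by no other of the 10 genes. CHI3L2 shares neither motif with its paralog. Its capitals are the C/EBP letters TTGCNNAA (9.05% of promoters), the STAT letters TTCNNNGAA (6.57%) and an NF-kB consensus (9.96%), and the last 2 were also found in POSTN and THBS1 (STAT) and in FBLN1 (NF-kB). FN1 holds the cyclic AMP response element TGACGTCA (1.65%) and overlapping runs of the Sp1 letters GGGCGG (42.6%), which TNC, THBS1 and FBLN1 hold too. THBS2 has the TEAD letters CATTCC on both strands, 103 and 91 bases before the start, and SPARC and THBS1 hold them as well (11.9% of promoters). SPP1 has the RUNX letters ACCACA (11.0%), and POSTN the AP-1 letters TGANTCA (6.57%). A match is a description of letters and says nothing on which factor was bound.

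As a group the 10 genes took 66629 reads in the library labelled shTRIP13, 0.335% of its total, against 207726 reads or 1.10% in the shcon library. Their FPKM summed to 539 against 1523, a sum 2.83-fold lower. Most of that gap came from CHI3L1 and FN1, which together made up 26.5% of the summed FPKM in the library labelled shTRIP13, against 65.5% in the shcon library. The other 8 genes summed to 396 FPKM against 525. The order of levels differed accordingly. In the library labelled shTRIP13 it ran SPP1, SPARC, FN1, TNC, CHI3L1, THBS2, and in the shcon library CHI3L1, FN1, SPP1, TNC, SPARC, THBS2, with POSTN, THBS1, CHI3L2 and FBLN1 below 4 FPKM in both.

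**Figure D1:**
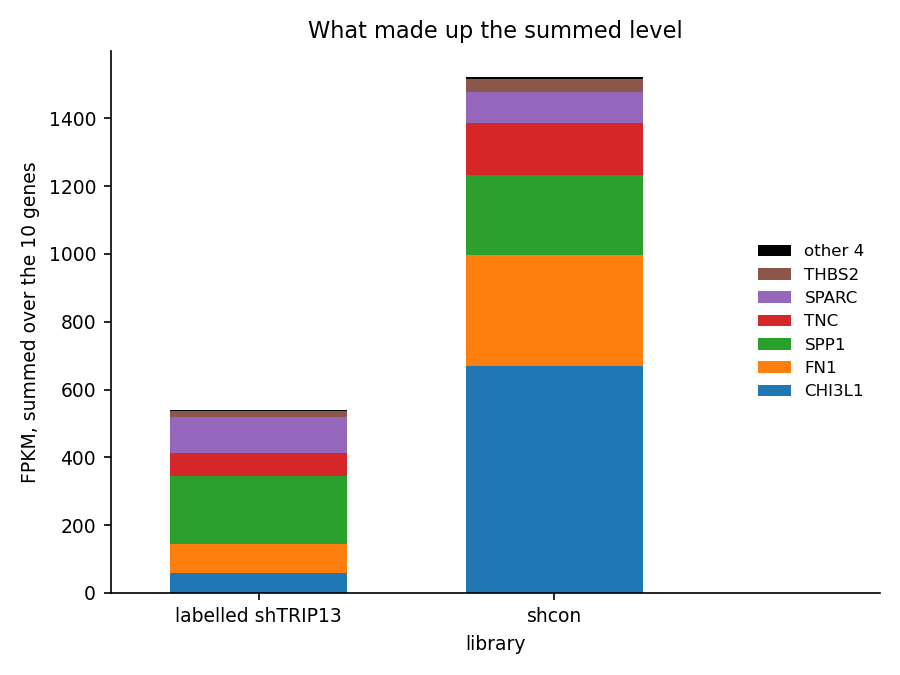
FPKM summed over the 10 genes in each library, with bar height from 0 and colours for the genes. The sum is 539 in the library labelled shTRIP13 and 1523 in the shcon library, and the CHI3L1 block shrinks most, to 57.8 FPKM against 670.

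A gene was called lower or higher in the library labelled shTRIP13 where its log2 ratio of FPKM + 1 reached -1 or 1, a 2-fold difference. The added 1 makes differences of weakly expressed genes look smaller. By this size rule 6 of the 10 genes were called lower and 0 higher. For comparison, 4.19% of 10671 protein-coding genes that averaged 1 FPKM or more were called lower and 2.17% higher. Since the genes were chosen from this very contrast, nothing is read from the difference between these shares. The 6 were CHI3L1, FBLN1, FN1, CHI3L2, TNC and THBS2. FBLN1 and CHI3L2 were below 1 FPKM in the library labelled shTRIP13 and passed the filter only through the shcon library. The same held for THBS1, which was not called. THBS2 at -1.06 lay just inside the limit of -1, and THBS1 at -0.72 was the nearest gene outside it. The median log2 ratio of the 10 was -1.10, beside 0.12 for all genes compared. POSTN, with a mean of 0.524 FPKM, was the 1 gene below the expression filter, and it is described with the rest.

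**Figure D2:**
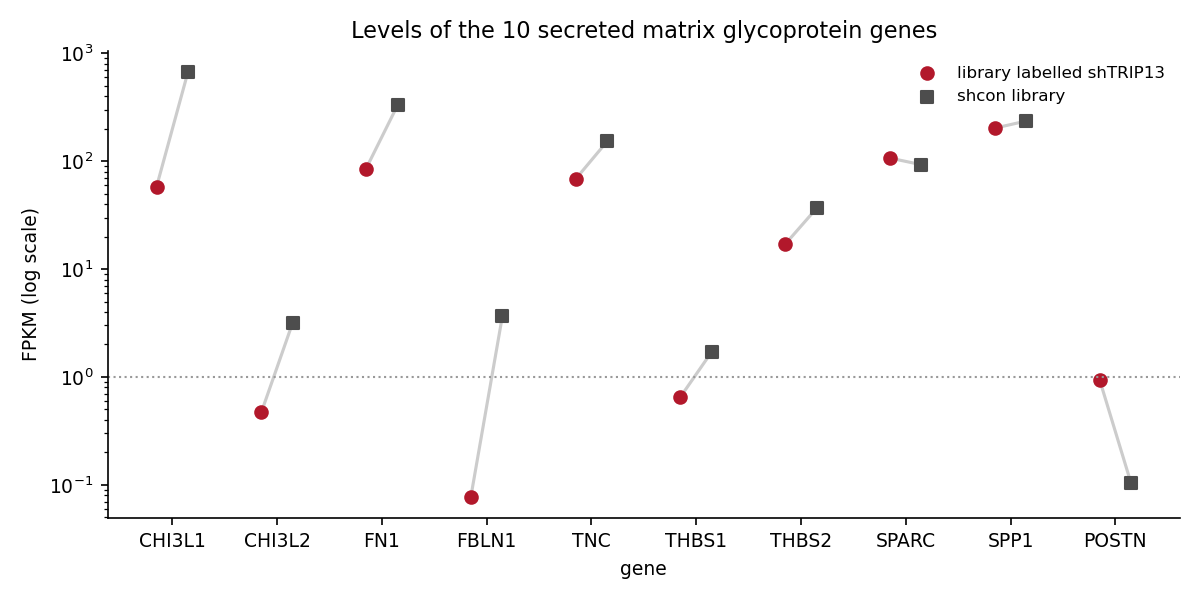
FPKM on a log axis for each gene, with the library labelled shTRIP13 as red circles on the left and the shcon library as grey squares on the right of each pair. Levels span 0.0779 to 670 FPKM, 8 lines rise towards shcon, and those of SPARC and POSTN fall. The dotted line marks 1 FPKM.

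CHI3L1 (ENSG00000133048, hg38 chr1:203178931-203186749, minus strand) had 57.8 FPKM in the library labelled shTRIP13, against 670 FPKM in the shcon library. These levels rest on 3817 and 44225 reads. The ratio was 0.0863 (95% counting interval 0.0835 to 0.0892), or 11.6-fold lower. Its log2 ratio of -3.51 was the 9th lowest of the 10671 genes compared. By level it ranked 28 among 19951 protein-coding genes in the shcon library and 690 in the library labelled shTRIP13. With 1 library a side the pattern of a gene is its log2 ratio alone, and the neighbours of CHI3L1 in that order were IL1RN (-3.53) and IL6 (-3.51) below it and SAA1 (-3.37) and KRT79 (-3.33) above it. This order depends on the added 1 FPKM, as SAA1 had 0 reads against 144. With 0.1 FPKM added instead, CHI3L1 and KRT79 stood at -3.53, IL1RN at -3.94, IL6 at -4.11 and SAA1 at -6.56.

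CHI3L2 (ENSG00000064886, chr1:111200771-111243440, plus strand), a chitinase-like paralog that likewise lacks chitinase activity, had 0.470 FPKM in the library labelled shTRIP13 and 3.19 FPKM in the shcon library, from 30 and 204 reads. It was 6.80-fold lower (4.62 to 10.3), with a log2 ratio of -1.51. Both paralogs were called lower, from very different levels, with CHI3L1 at 123 times the FPKM of CHI3L2 in the library labelled shTRIP13 and at 210 times in the shcon library. The genes lie far apart on the same chromosome and share no exon with another annotated gene.

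The active chitinases of the family had almost no reads, with CHIA at 0 reads in both libraries and CHIT1 at 0 against 2. OVGP1, the oviduct glycoprotein, had 8 reads against 11. CHID1, a lysosomal and secreted relative, was the family member outside the pair with a measurable level, 16.1 FPKM in the library labelled shTRIP13 against 9.65 FPKM in the shcon library, a ratio of 1.67 (1.55 to 1.80) that ran opposite to CHI3L1. Of the genes beside CHI3L1, MYBPH (myosin binding protein H, same strand, 3.12 kb away) had 4 reads in the library labelled shTRIP13 against 101 in the shcon library, a ratio of 0.0396 (0.0106 to 0.105). Beside CHI3L2, CEPT1 (15.7 kb away) had 4.69 against 5.15 FPKM, a ratio of 0.911 (0.825 to 1.01).

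**Figure D3:**
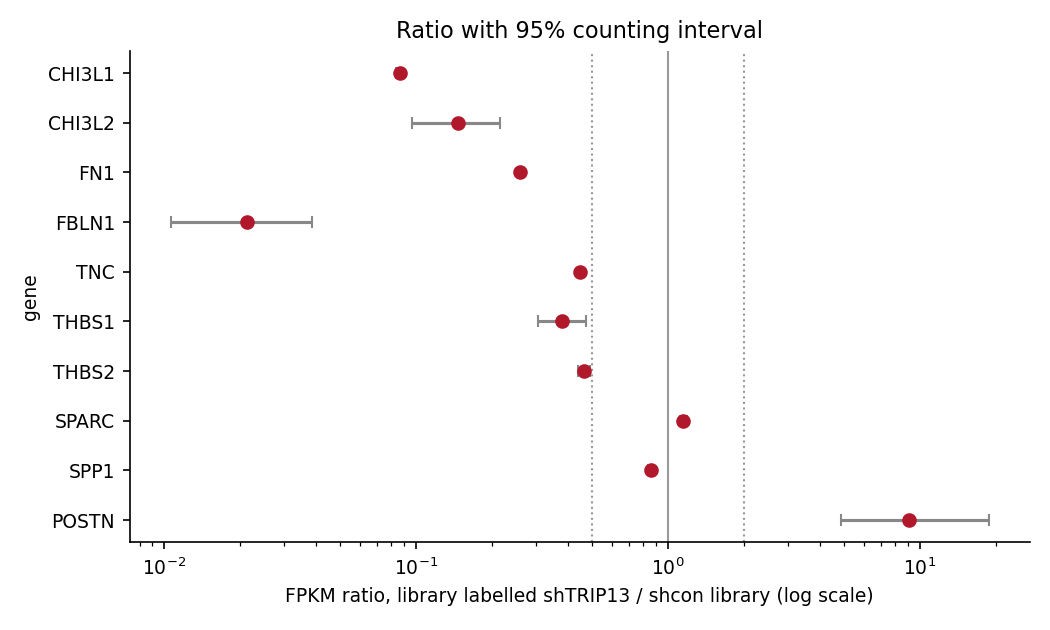
FPKM ratio of the library labelled shTRIP13 over the shcon library on a log axis, 1 row a gene, with bars for the 95% counting interval (narrower than the point for genes with many reads). The solid line marks 1 and the dotted lines a 2-fold difference. Points run from 0.0214 for FBLN1 to 9.09 for POSTN, with 7 of 10 left of the lower dotted line.

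Fibronectin (FN1, ENSG00000115414, chr2:215360440-215436172, minus strand), the main fibril-forming glycoprotein through which cells hold on to matrix, had 85.3 FPKM in the library labelled shTRIP13, against 329 FPKM in the shcon library. With 28624 and 110241 reads it was the best-counted of the 10 genes. It was 3.85-fold lower (3.80 to 3.90), with a log2 ratio of -1.93 and a place of 431 by level in the library labelled shTRIP13 against 61 in the shcon library. FN1 stood at 0.799 times the level of SPARC in the library labelled shTRIP13 and at 3.55 times in the shcon library. The protein-coding genes on either side did not share that size of difference. ATIC (10.7 kb away) had 29.1 against 24.6 FPKM and MREG, far off at 507 kb, 4.41 against 6.01 FPKM.

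FBLN1 (ENSG00000077942, chr22:45502238-45601135, plus strand), a fibulin that binds fibronectin and elastic fibres, had 0.0779 FPKM in the library labelled shTRIP13 and 3.63 FPKM in the shcon library. That is 11 reads against 513, a 46.6-fold lower level with a wide interval of 25.8 to 94.0. It was the lowest ratio of the 10, although the log2 ratio of FPKM + 1, -2.10, places it behind CHI3L1. HMCN1 (hemicentin, a very large fibulin) was the 1 relative of 4 above the filter called lower, with 0.425 against 2.62 FPKM and a ratio of 0.162 (0.136 to 0.193). Like FBLN1, HMCN1 passed the filter only through the shcon library. EFEMP1, EFEMP2 and FBLN5, which help assemble elastic fibres, had 0.703 against 1.41, 15.1 against 18.0 and 3.91 against 4.13 FPKM, and FBLN2 and FBLN7 had 0 reads against 9 and 7.

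TNC (ENSG00000041982, chr9:115019578-115118257, minus strand), a many-armed glycoprotein of developing and wounded tissue and of glioma stroma, had 68.2 FPKM in the library labelled shTRIP13, against 152 FPKM in the shcon library. From 12740 and 28424 reads it was 2.23-fold lower (2.18 to 2.28), with a log2 ratio of -1.15. Of its exon length 1.34% is shared with DEC1 on the opposite strand, which had 10 reads against 24. The other tenascins were barely read. TNR had 0 reads in both libraries, TNN 0 against 1 and TNXB 31 against 88.

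The thrombospondins THBS1 and THBS2 are trimeric glycoproteins known to restrain vessel growth, and THBS1 also activates latent TGF-beta. THBS2 (ENSG00000186340, chr6:169215780-169254044, minus strand) had 17.0 FPKM in the library labelled shTRIP13 and 36.6 FPKM in the shcon library, from 2114 and 4552 reads, 2.15-fold lower (2.04 to 2.27). THBS1 (ENSG00000137801, chr15:39581079-39599466, plus strand) had 0.654 FPKM in the library labelled shTRIP13 and 1.72 FPKM in the shcon library, from 116 and 305 reads, 2.63-fold lower (2.12 to 3.28). The intervals of these fold values overlap, yet the log2 ratio of FPKM + 1 called THBS2 (-1.06) and not THBS1 (-0.72), because the added 1 weighs more at the lower level. With a pseudocount of 0.1 FPKM the log2 ratio of THBS1 was -1.27. THBS2 was the main form in both libraries, at 26.0 times the FPKM of THBS1 in the library labelled shTRIP13 and 21.3 times in the shcon library.

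Of the THBS1 exons 7.58% overlap genes on the opposite strand, among them FSIP1 with 53 reads against 34. The THBS1 count could be affected there if counting ignored strand. THBS3, a further thrombospondin, had 8.75 against 10.4 FPKM (ratio 0.845, 0.767 to 0.930), THBS4 had 39 reads against 72 and COMP had 0 in both.

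SPARC and SPP1, the remaining abundant genes, stayed close to level. SPARC (ENSG00000113140, chr5:151661096-151687165, minus strand), a collagen-binding protein that loosens cell contacts, had 107 FPKM in the library labelled shTRIP13, against 92.6 FPKM in the shcon library. From 9990 and 8668 reads the ratio was 1.15 (1.12 to 1.19), and 1.09 when each library was divided by its own total. Its log2 ratio of 0.20 was 0.08 above the median of all genes compared. An antisense RNA, CLMAT3, covers 7.89% of its exons and had 8 reads in both libraries. In its family SPOCK1, a testican proteoglycan, stood level at 27.9 against 27.8 FPKM, and since its log2 ratio turned below 0 under the rescalings tried, no direction is read. SMOC1 had 4.77 against 9.54 and FSTL1 9.93 against 18.2 FPKM. SPARCL1, SMOC2, SPOCK2 and SPOCK3 stayed below the filter, with at most 12 reads in the library labelled shTRIP13 and 18 in the shcon library.

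SPP1 (ENSG00000118785, chr4:87975650-87983426, plus strand) encodes osteopontin, a phosphoprotein that binds integrins and CD44. Its levels were 202 FPKM in the library labelled shTRIP13 and 235 FPKM in the shcon library, from 9087 and 10583 reads, a ratio of 0.859 (0.835 to 0.883), or 0.814 with own totals. It made up 37.5% of the summed FPKM of the 10 genes in the library labelled shTRIP13, against 15.4% in the shcon library. SPP1 stood at 3.50 times the level of CHI3L1 in the library labelled shTRIP13 and at 0.351 times in the shcon library. The bone and tooth proteins of its family were close to absent, with IBSP at 0 reads against 4, MEPE at 1 in both and DMP1 and DSPP at 0 in both.

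POSTN (ENSG00000133110, chr13:37562583-37598844, minus strand), a fasciclin-domain protein that helps cross-link collagen and is induced by TGF-beta, went the other way. It had 0.944 FPKM in the library labelled shTRIP13, against 0.104 FPKM in the shcon library, from 100 and 11 reads. The ratio was 9.09 with a wide interval of 4.87 to 18.8, while on the log2 scale with 1 FPKM added it was 0.82, short of the size rule. With a pseudocount of 0.1 FPKM it was 2.36. Its closest relative, TGFBI, likewise secreted and likewise a TGF-beta target, gave 82563 reads in the library labelled shTRIP13 and 17962 in the shcon library, a ratio of 4.60 (4.52 to 4.67). The scavenger receptors of that family, STAB1 and STAB2, had 2 reads against 16 and 4 in both. TRPC4, on the side of the POSTN start, had 0.822 against 1.29 FPKM.

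**Figure D4:**
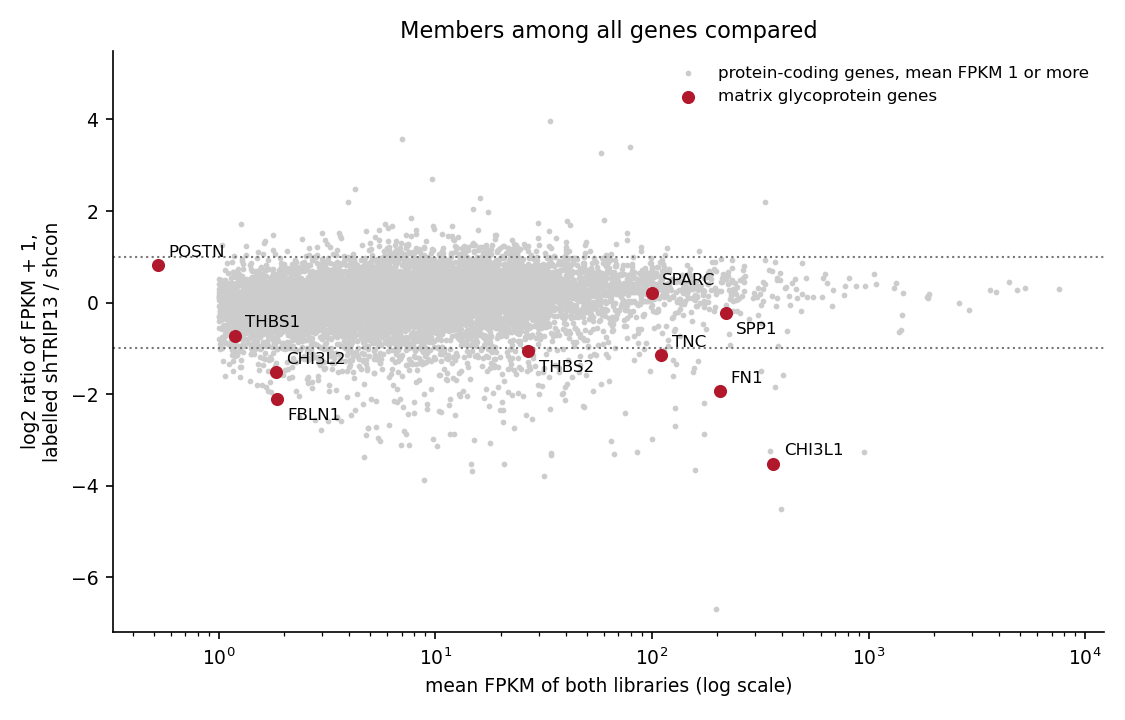
Log2 ratio of FPKM + 1 (library labelled shTRIP13 over shcon) against mean FPKM on a log axis, with 10671 protein-coding genes in grey and the 10 genes in red. CHI3L1 sits near the lower edge at -3.51 among highly expressed genes, SPARC at 0.20 lies in the main cloud, and POSTN is left of the filter. Dotted lines mark the size rule at 1 and -1.

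Receptors and partners of these proteins lay mostly within 2-fold. Among receptors and binding partners of CHI3L1, 5 of 6 passed the filter and 0 met the size rule in either direction. IL13RA2, a decoy receptor for interleukin 13 that CHI3L1 binds, had 24.5 FPKM in the library labelled shTRIP13 against 44.9 FPKM in the shcon library, a ratio of 0.546 (0.499 to 0.596). Its co-receptor TMEM219 had 25.5 against 28.8 FPKM and CD44, the hyaluronan receptor that also binds osteopontin, 112 against 115 FPKM. LGALS3 (galectin 3) and the heparan sulphate proteoglycan SDC1 stood higher, at 104 against 73.0 and 48.7 against 31.7 FPKM.

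Of 13 integrin subunits that bind fibronectin, tenascin C, osteopontin, periostin or thrombospondins, alone or beside laminin and collagen, 9 passed the filter. Of the 9, 2 were called lower and 0 higher, and their median was -0.48. ITGA2 had 5.36 against 19.4 FPKM and ITGA7 11.2 against 32.3 FPKM. Of the fibronectin receptor pair, ITGA5 had 94.9 against 136 FPKM (-0.52 as a log2 ratio). Its partner ITGB1 stood level at 144 against 139 FPKM (0.04, below 0 under each rescaling), so no direction is read for ITGB1. ITGAV and ITGB3, which pair to bind the RGD motif of fibronectin and osteopontin, had 24.2 against 21.6 and 50.3 against 43.4 FPKM. Among 9 other receptors 6 passed and 0 met the size rule. The thrombospondin receptor CD47 had 17.8 against 16.0 FPKM and CD36, a further one, 0 reads against 1. LRP1, an endocytic receptor, had 83.3 against 122 FPKM, the growth factor receptor EGFR 13.8 against 16.8 FPKM and CALR (calreticulin) 639 against 349 FPKM.

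Enzymes that cross-link or cut the matrix were split. Of 19 such genes and their inhibitors 16 passed the filter, 4 were called lower and 0 higher, and the median was 0.08 on the log2 scale. The 4 were the cross-linking transglutaminase TGM2 (7.46 against 48.4 FPKM), the protease inhibitors TIMP3 (2.24 against 13.7) and TIMP1 (202 against 602), and the collagenase MMP1 (29.1 against 98.1). The collagen cross-linkers LOX and LOXL2 had the highest log2 ratios, 0.85 and 0.60. MMP2 and MMP14, with log2 ratios of 0.12 and 0.03, turned below 0 under a rescaling.

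The CCN proteins, matricellular like SPARC and the thrombospondins, went both ways. CTGF had 4.17 against 12.2 FPKM and WISP2 0.466 against 1.81 FPKM, while NOV had 63.2 against 17.6 FPKM and CYR61 17.6 against 10.2 FPKM. Of 40 other matrix glycoproteins 23 passed the filter, 4 were called lower and 1, TGFBI of the fasciclin family above, higher. Their median log2 ratio was -0.42, and 17 of the 23 lay below 0. ABI3BP, a matrix protein of connective tissue, had 2.60 against 15.6 FPKM and SVEP1 0.767 against 3.36 FPKM, while EMILIN2 had 2.81 against 1.29 FPKM. SVEP1, 1 of those called lower, passed the filter only through the shcon library. Among the 30 family relatives of the 10 genes, 20 were below 1 FPKM in both libraries and 10 passed the filter, of which 1 was called lower (HMCN1) and 1 higher (TGFBI).

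Transcription factors of the mesenchymal glioma state, and cytokines known to induce some of the genes described here, were listed apart. Whether any of these factors or cytokines acted on those genes in this culture was not tested. Of 12 regulators of the mesenchymal glioma state, all 12 passed the filter, 1 was called lower and 0 higher, around a median of -0.15. The 1 was CEBPD, at 3.41 against 19.8 FPKM, and BHLHE40 had 56.3 against 97.2 FPKM. SMAD3, which carries TGF-beta signals, had 29.4 against 17.7 FPKM and RUNX1 8.36 against 6.38 FPKM. Of 9 cytokines 6 passed, 3 were called lower and 0 higher. IL1B, which induces many matrix and inflammatory genes, had 2.80 against 394 FPKM, IL6 1.52 against 27.8 FPKM and LIF 33.4 against 222 FPKM. TGFB1 had 50.7 against 51.5 FPKM and TGFB2 5.46 against 3.48 FPKM.

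**Figure D5:**
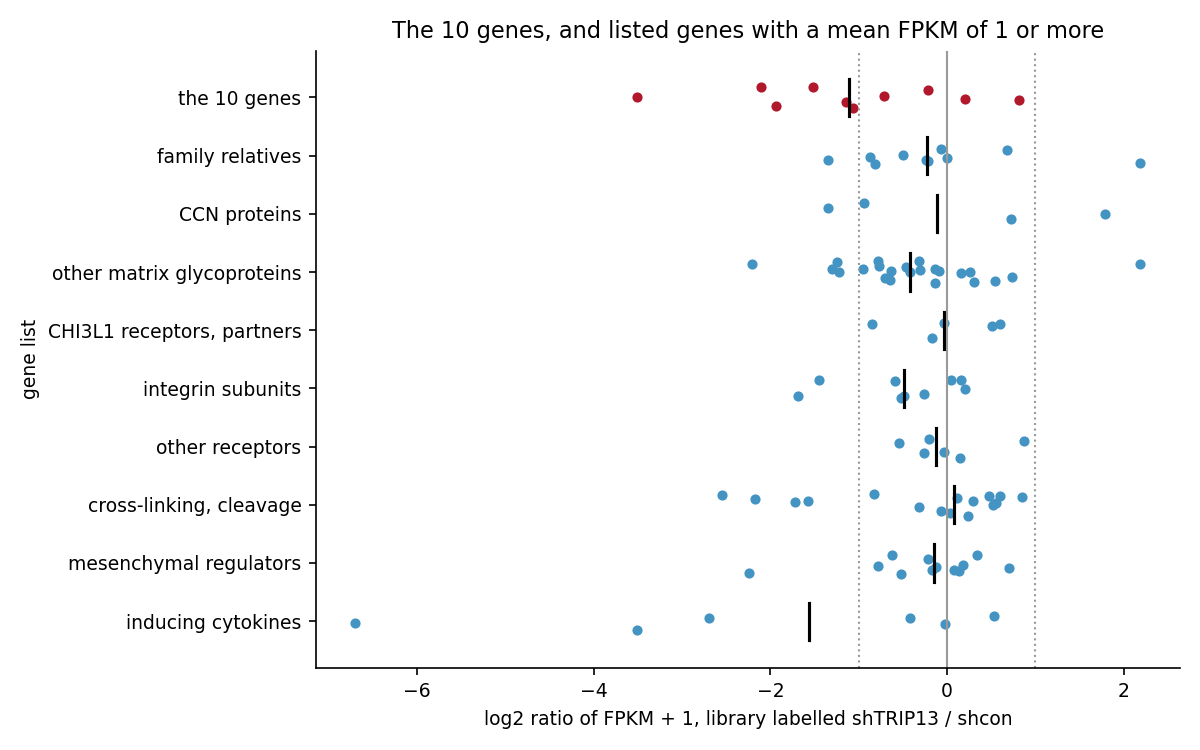
Log2 ratio of FPKM + 1 (library labelled shTRIP13 over shcon) for the 10 genes and for listed genes above the expression filter, 1 point a gene, with a black bar for the median of each row. The 10 genes have a median of -1.10 and the other matrix glycoproteins of -0.42. The vertical scatter within a row carries no meaning.

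In tissue, fibroblasts, pericytes and macrophages can also make these proteins. Both libraries came from the U87MG line, so the markers are given beside the results as RNA of that culture. Fibroblast and pericyte markers numbered 12, of which 7 passed, all 7 with log2 ratios below 0 and 2 of them called lower, and the list summed to 104 FPKM in the library labelled shTRIP13 against 154 FPKM in the shcon library. PDGFRB had 1.74 against 12.4 FPKM and LUM 2.08 against 7.55 FPKM, while FAP had 10.1 against 20.6 FPKM and COL1A1 27.4 against 29.4 FPKM. Below the filter, DCN had 33 reads against 386, PDGFRA 3 against 97, THY1 3 against 76, COL3A1 6 against 17 and RGS5 62 against 73. Of 10 microglia and macrophage markers 2 passed and 1 was called lower, and the list summed to 4.60 FPKM in the library labelled shTRIP13 against 9.21 FPKM in the shcon library. That 1 was TMEM119, with 43 reads against 272, or 0.696 against 4.40 FPKM, which passed only through the shcon library. CSF1R had 330 reads against 374, while AIF1, CX3CR1 and P2RY12 had 0 reads in both libraries. Of 7 endothelial markers 1 passed, KDR with 2.85 against 4.52 FPKM, and the list summed to 3.09 against 5.74 FPKM. Among those that failed, PECAM1 had 1 read against 45, VWF 6 against 75, TEK 9 against 38, CDH5 0 against 6 and ERG 14 against 11. Astrocyte markers numbered 9, of which 4 passed, all 4 below 0 and 2 of them called lower, and the list summed to 88.7 against 162 FPKM. ALDOC had 6.38 against 22.5 FPKM, GLUL 11.7 against 25.0 FPKM, GJA1 62.3 against 103 FPKM and SLC1A3 7.91 against 10.6 FPKM, while AQP4 had 0 reads in both. The part of these markers in the results was not tested. In bulk RNA, fewer cells with a marker and less RNA per cell cannot be told apart.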

How the data were processed

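Gene expression was compared between 2 libraries of U87MG spheres, 1 per group. The authors deposited FPKM values for 58735 genes. Per the submitters' processing notes, build hg38 and, without roles, edgeR, featureCounts 1.5.0-p3 and HISAT2 2.0.5 were used. The sources used here give no annotation and no strand setting. All 58735 identifiers, positions and strands equalled GENCODE release 29, which gave exon overlaps. Deposited gene lengths, in bases, times FPKM were whole multiples of 1 step, within a tolerance of 0.001 reads, and gave the reads. Differences are log2 ratios with 1 FPKM added. Protein-coding genes averaging at least 1 FPKM were compared, and a log2 ratio of 1 or -1 set the size rule. Intervals (95%, exact Clopper-Pearson, on the split of reads) take in counting error only, as reads carrying no molecular identifier need not be separate molecules. Genes named were all 10, TRIP13, family relatives, the 2 highest and 2 lowest non-members of each list that holds no cell type markers, 4 genes next to CHI3L1 in log2 ratio, and neighbours of CHI3L1 and CHI3L2. Others (markers, defining receptors, neighbours of FN1 and POSTN, TIMP1, MMP1, MMP2, MMP14, LIF, ITGA5, ITGB1, CD36, CD44) were chosen after their values were seen. Members and lists were chosen with earlier results of these data known. Promoters came from RefSeq. Recovery of reads, intervals and the size rule were tested on simulated data. Scripts ran under matplotlib 3.10.9, scipy 1.17.1, pandas 2.3.3, numpy 2.4.6 and Python 3.11.15.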

Additional observations from a re-analysis of the deposited data

How the results depend on the processing

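No paired analysis was possible because there was a single library on either side. Under 9 of the 10 alternatives all 10 genes had a value and kept their sign, and so did the 6 genes left by a filter of 5 FPKM, of which 4 were called lower. With a pseudocount of 5 FPKM the count of these genes called lower was 3, which left CHI3L1, FN1 and TNC. It was 7, with THBS1 added, with a pseudocount of 0.1 FPKM, under TPM and with 5 reads added at equal totals. Under the same 3 the count called higher was 1, POSTN. The median log2 ratio of the 10 genes was -0.67 with a pseudocount of 5, -1.21 with 0.1, -1.24 under TPM, -1.24 with the median ratio set to 1, -1.18 with own totals, -1.17 when scaled without mitochondrial and the 50 most abundant genes and -1.33 with 5 reads added. TPM and the median ratio of 1 lowered the median of all genes compared to -0.01 and 0.00. The percent of genes compared called lower was 6.34 with a pseudocount of 0.1, 1.69 with 5, 2.38 with no filter, 7.85 under TPM and 7.24 with 5 reads added, and that called higher was 3.82 with a pseudocount of 0.1, 0.600 with 5, 1.17 with no filter and 1.30 with the median ratio set to 1. Of 115 listed genes above the filter, 5 changed sign under a rescaling. Counting error was widest for FBLN1, CHI3L2 and POSTN, which had 11, 30 and 11 reads in their lower library. With own totals the ratios of CHI3L1, FN1 and TNC were 0.0818, 0.246 and 0.425, each below its counting interval.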

Other observations

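Antisense RNAs on or within 10 kb of 5 of the 10 genes had few reads, and AC037198.2, which shares 411 exon bases with THBS1, had 0 in both libraries. BX322234.1, which overlaps the span of THBS2 but none of its exons, had 46 reads in the library labelled shTRIP13 against 47 in the shcon library, a ratio of 0.979, where THBS2 itself was 2.15-fold lower. LINC01589, beside FBLN1, had 13 reads against 22, a ratio of 0.591 (95% counting interval 0.273 to 1.23). AC012462.3, beside FN1, had 2 reads against 3. These ratios were not tested against those of the coding genes, and AC012462.3 was too thinly read for any comparison.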
